A study of Mus musculus with 16 samples.

Results

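The collagen genes of the mouse hypothalamus were described from RNA-seq values of 16 libraries. They were chosen by name and level: protein-coding genes whose whole symbol reads Col, a number, the letter a and a number, with more than 1 CPM (a gene's count as a share of the library total, on the usual CPM scale) in at least 1 library. Of 44 such genes among the 55401 gene identifiers, 41 passed, among 15806 genes of all kinds that passed the same level and were tested. *Col10a1*, *Col13a1* and *Col17a1* did not pass, with highest values of 0.223, 0.805 and 0.578 CPM. Just inside the level were *Col28a1*, at most 1.07 CPM, and *Col9a1*, at most 1.14 CPM, which passed through 1 library each. *Col3a1*, *Col4a3*, *Col20a1* and *Col22a1* passed in 15 libraries and the other 35 genes in all 16.

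Each library came from the whole hypothalamus of another male C57BL/6 mouse aged 3 months. There were 4 WT and 4 ASIC1a-/- mice at Zeitgeber time (ZT) 1, an hour after lights on, and 4 of each genotype at ZT13, an hour after lights off. The ASIC1a-/- mice lacked the acid-sensing ion channel subunit ASIC1a in all cells throughout life, and both genotypes came from the breeding of heterozygous mice. The comparisons ask whether the collagen genes differed with the genotype, with the time of day, or between libraries in step with tissue of the meninges.

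Collagens are triple-helical proteins of the extracellular matrix, and each chain has its own gene. Fibrillar chains form the fibres of connective tissue, collagen IV chains form the network of basement membranes, and collagen VI forms beaded filaments around cells. FACIT chains sit on fibrils, transmembrane collagens are held in the cell membrane, and multiplexins are basement membrane collagens of vessels that carry endostatin-like ends. The brain itself holds little fibrillar collagen. Most of it lies in the meninges, whose fibroblasts make collagens I, III and VI, and around vessels, whose endothelial and mural cells make collagen IV.

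Libraries held 34888522 to 42326259 counts each. *Asic1* was 64.8 to 69.9 CPM in ASIC1a-/- and 101 to 106 CPM in WT at ZT1, and 69.8 to 71.8 against 97.0 to 102 CPM at ZT13, so the genotypes did not overlap. All 12 hypothalamic markers were measured, with sums of 1143 to 1566 CPM. The sum of 12 markers of meningeal fibroblasts, none of them a collagen gene, was 59.6 to 138 CPM in 14 libraries, 456 CPM in ASIC1a-/- ZT1 replicate 4 and 245 CPM in ASIC1a-/- ZT13 replicate 2. These 2 libraries stood apart, and the counts along the marker score and those between times in ASIC1a-/- are given with and without them. Choroid plexus markers summed to 29.2 to 41.6 CPM, and *Ttr*, the most abundant transcript of that tissue, stayed at 0.17 to 1.35 CPM. In these whole-tissue samples, fewer cells of a type and less RNA per cell cannot be told apart.

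Sequence from the 250 bases before the start of transcription is shown for 4 genes on which the results turn. *Col1a2* and *Col3a1* moved together with the meningeal markers. *Col27a1* was the collagen gene that differed by time in WT, and *Col25a1* had the highest level and varied least. The sequences are from RefSeq on GRCm38.p6, all on the plus strand. For *Col3a1*, *Col27a1* and *Col25a1* all 250 bases up to the RefSeq start are shown. For *Col1a2*, 127 of the 250 bases were left out because of annotated exons. The 123 bases shown do not reach its start, and their GGGCGG matches begin 205 and 188 bases before it. The capitals mark 3 promoter motifs searched on both strands. They are the CCAAT box (ATTGG on the other strand), the TATA box as TATAAA (on the other strand TTTATA) and the GC box as GGGCGG (on the other strand CCGCCC). The *Col1a2* stretch is chr6:4505370-4505492 and the *Col3a1* stretch chr1:45311288-45311537. The *Col27a1* stretch is chr4:63215162-63215411 and the *Col25a1* stretch chr3:130180595-130180844. In GENCODE M21 the genes span chr6:4504814-4541544 (*Col1a2*), chr1:45311538-45349706 (*Col3a1*), chr4:63214004-63334991 (*Col27a1*) and chr3:130131501-130599877 (*Col25a1*). It places the *Col3a1* stretch outside transcripts, and the other 3 stretches in introns of longer transcripts of the same gene.
Col1a2: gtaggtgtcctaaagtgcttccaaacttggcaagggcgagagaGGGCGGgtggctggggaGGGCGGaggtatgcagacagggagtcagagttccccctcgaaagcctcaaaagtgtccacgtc
Col3a1: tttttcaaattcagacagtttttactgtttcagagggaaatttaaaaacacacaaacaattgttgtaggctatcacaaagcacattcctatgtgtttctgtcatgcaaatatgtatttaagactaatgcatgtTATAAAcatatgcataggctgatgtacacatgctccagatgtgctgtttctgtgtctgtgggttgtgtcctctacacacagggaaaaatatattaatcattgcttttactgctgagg
Col27a1: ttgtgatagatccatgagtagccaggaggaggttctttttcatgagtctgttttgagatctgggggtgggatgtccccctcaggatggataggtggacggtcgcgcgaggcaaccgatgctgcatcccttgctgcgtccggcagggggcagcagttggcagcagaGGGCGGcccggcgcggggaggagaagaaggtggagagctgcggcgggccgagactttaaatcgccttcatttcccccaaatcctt
Col25a1: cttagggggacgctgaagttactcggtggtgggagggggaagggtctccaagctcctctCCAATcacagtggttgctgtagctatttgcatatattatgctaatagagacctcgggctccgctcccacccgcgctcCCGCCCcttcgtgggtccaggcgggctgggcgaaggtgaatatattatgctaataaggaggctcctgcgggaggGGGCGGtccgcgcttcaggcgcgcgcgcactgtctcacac

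The *Col3a1* stretch held 35.2% G and C and a TATAAA but no GGGCGG, whereas the stretches of *Col1a2*, *Col27a1* and *Col25a1* held 59.3%, 59.6% and 60.4% G and C and at least 1 GGGCGG each. In the 250 bases before the start, GGGCGG in either direction was found in 22 of 35 promoters listed for 32 of the collagen genes, which is 62.9%, and in 32.7% of all 32851 promoters of the table. CCAAT was found in 34.3% of the collagen promoters and 33.8% of all, and TATAAA in 5.71% and 12.4%. *Col1a2* was also counted for CCAAT within the 250 bases, at a place outside the stretch shown. None of the 3 motifs was found in all 4 stretches, and a match of letters is a description and not a site.

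The collagen genes spanned levels from 49.6 to 0.325 TPM (a level corrected for transcript length and scaled to the same total in each library) as means over the 16 libraries. The 5 highest were *Col25a1*, a transmembrane collagen of neurons, at 49.6 TPM, *Col16a1*, a FACIT collagen, at 40.4, *Col4a2* at 33.5, the fibrillar *Col11a1* at 25.6 and *Col4a1* at 24.8. The classic chains of connective tissue were far lower, with *Col1a2* at 5.32, *Col3a1* at 1.66 and *Col1a1* at 1.46 TPM. Means under 1 TPM were found for *Col6a6* (0.797), *Col4a6*, *Col14a1*, *Col20a1*, *Col9a1*, *Col4a3*, *Col22a1*, *Col4a4* and *Col28a1*.

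**Figure D1:**
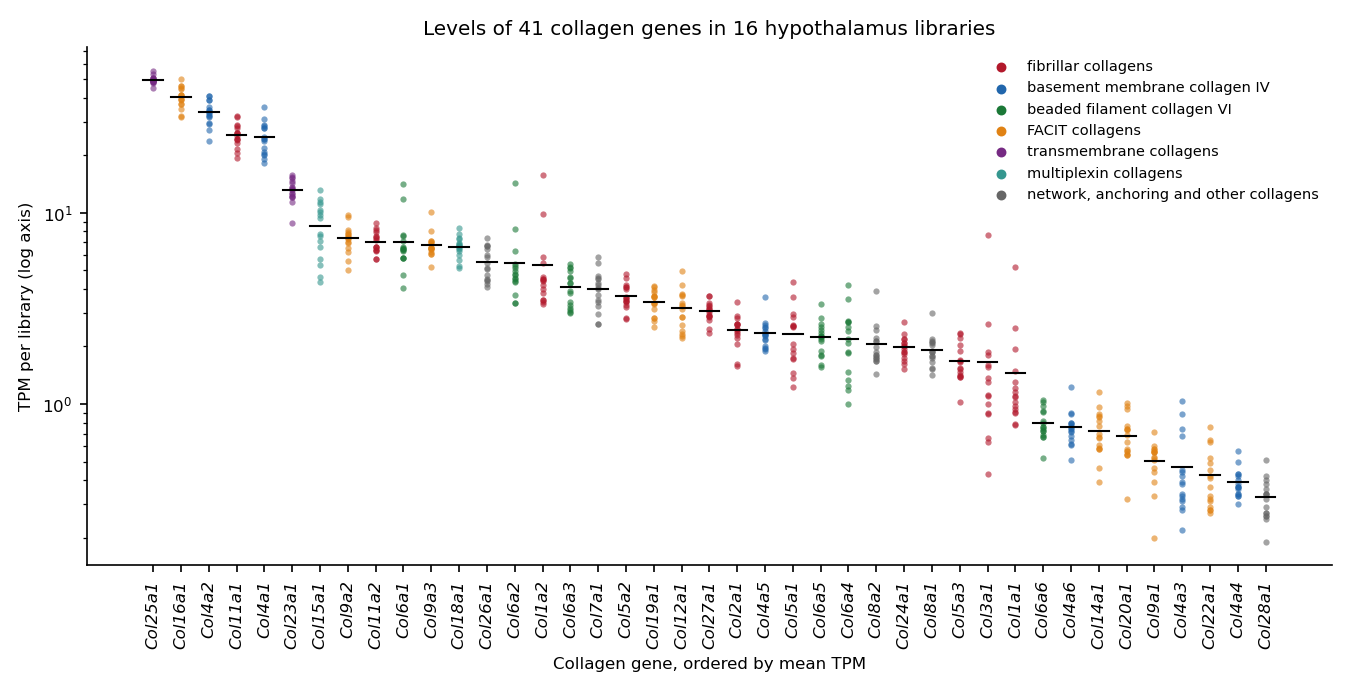
TPM of each of the 41 collagen genes (vertical, log axis) in each of the 16 libraries (points), with genes ordered by their mean (bars) and coloured by class. Col25a1 leads with a mean of 49.6 TPM, and Col1a1, Col1a2, Col3a1, Col6a1 and Col6a2 have points far above their own mean.

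By class, the summed TPM was shared almost evenly between 4 classes. Basement membrane collagen IV (6 genes) summed to 62.3 TPM, which is 21.1% of all collagen TPM, FACIT collagens (9 genes) to 63.5, transmembrane collagens (2 genes) to 62.8 and fibrillar collagens (11 genes) to 56.3. Collagen VI (6 genes) summed to 21.8 TPM, the multiplexins *Col15a1* and *Col18a1* to 15.2 and the 5 network, anchoring and other collagens to 13.8. The sum over all 41 genes was 300.3 ± 30.8 TPM in WT and 293 ± 49.3 TPM in ASIC1a-/- at ZT1, and 290.1 ± 19.4 and 299 ± 37.3 TPM at ZT13 (SD, n = 4 each), so the groups differed by less than the spread between mice.

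The levels of the leading genes of each class are given next as group means of CPM with their SD over 4 mice, always in the order WT ZT1, ASIC1a-/- ZT1, WT ZT13 and ASIC1a-/- ZT13. Among the fibrillar collagens the chains of collagen XI led, which form the core of thin fibrils. *Col11a1* was 51.5 ± 4.89, 47.2 ± 5.36, 48.8 ± 3.54 and 50.0 ± 7.67 CPM and *Col11a2* 18.9 ± 2.43, 18.3 ± 2.06, 19.0 ± 1.29 and 19.1 ± 3.01 CPM. The group means of both lay within an SD of each other. *Col1a2*, next in the class, was 9.77 ± 1.504, 19.0 ± 14.9, 12.1 ± 1.18 and 13.1 ± 7.32 CPM, with wide SDs in both ASIC1a-/- groups. The collagen V chains were lower, with *Col5a1* at 3.49 ± 0.33, 4.57 ± 2.201, 3.70 ± 0.33 and 4.13 ± 1.61 CPM and *Col5a2* at 11.8 ± 1.33, 11.8 ± 2.22, 10.9 ± 0.85 and 10.5 ± 2.28 CPM. *Col2a1*, the collagen of cartilage, was 3.92 to 6.86 CPM over the 16 libraries, *Col5a3* 3.19 to 6.98 CPM and *Col24a1* 5.20 to 8.94 CPM.

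Collagen IV was carried by its most widespread pair. *Col4a2* was 102 ± 14.7, 93.1 ± 13.4, 94.8 ± 7.14 and 92.7 ± 12.3 CPM, and *Col4a1* was 47.6 ± 6.47, 44.6 ± 5.70, 40.9 ± 2.25 and 40.8 ± 4.37 CPM. The X-linked chains were lower, with *Col4a5* at 6.45 ± 0.69, 7.05 ± 2.15, 5.97 ± 0.44 and 6.33 ± 0.90 CPM and *Col4a6* between 1.79 and 4.21 CPM over the 16 libraries. Of the chains known from the kidney filter and the inner ear, *Col4a4* was 1.73 ± 0.16, 1.81 ± 0.29, 2.16 ± 0.10 and 1.89 ± 0.27 CPM. Among collagen VI genes, *Col6a1* was 12.6 ± 2.39, 16.7 ± 9.07, 12.8 ± 0.53 and 15.7 ± 5.28 CPM and *Col6a3* was 11.3 ± 2.43, 11.2 ± 1.61, 11.8 ± 0.37 and 12.8 ± 1.67 CPM. *Col6a1* spread more in the ASIC1a-/- groups, which hold the 2 libraries high in meningeal markers, than in WT. The remaining chains *Col6a4*, *Col6a5* and *Col6a6* ranged over 2.203 to 8.78, 4.39 to 6.58 and 2.43 to 4.66 CPM.

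Of the FACIT collagens, *Col16a1* was 37.0 ± 3.91, 34.0 ± 4.77, 35.6 ± 2.85 and 36.8 ± 4.44 CPM and *Col12a1* 12.4 ± 0.74, 14.8 ± 4.496, 11.98 ± 0.81 and 12.9 ± 2.79 CPM. The collagen IX chain *Col9a2* was 8.55 ± 1.13, 8.52 ± 1.32, 8.87 ± 0.50 and 8.53 ± 1.35 CPM and its partner *Col9a3* 8.09 ± 0.62, 8.11 ± 0.46, 8.87 ± 0.70 and 8.65 ± 0.47 CPM. The group means of *Col9a2* differed by less than their SDs. *Col19a1* was 6.19 to 9.60 CPM over the 16 libraries, and the low FACIT genes *Col14a1*, *Col20a1*, *Col22a1* and *Col9a1* ranged from 0.31 to 2.57 CPM. The transmembrane *Col25a1*, a neuronal collagen whose shed part binds amyloid-beta, was 136 ± 3.16, 138 ± 5.29, 145 ± 5.70 and 138 ± 2.79 CPM, and *Col23a1* was 35.1 ± 1.796, 35.9 ± 6.83, 39.3 ± 3.93 and 38.0 ± 3.42 CPM.

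The multiplexin *Col15a1* was 11.01 ± 1.58, 10.1 ± 1.19, 9.41 ± 0.81 and 9.47 ± 1.28 CPM, and *Col18a1*, whose end is released as endostatin, was 16.04 ± 2.10, 15.7 ± 2.44, 16.2 ± 1.04 and 17.1 ± 1.86 CPM. Of the network and other collagens, *Col26a1* was 5.51 ± 1.27, 5.18 ± 0.83, 4.35 ± 0.73 and 4.37 ± 0.54 CPM and *Col7a1* was 4.74 ± 0.43, 3.61 ± 0.51, 4.14 ± 0.53 and 3.90 ± 0.84 CPM. *Col8a2* was 4.13 ± 0.39, 5.54 ± 2.15, 4.04 ± 0.53 and 4.08 ± 0.98 CPM and *Col8a1* 5.15 ± 0.49, 5.49 ± 1.61, 4.25 ± 0.51 and 4.77 ± 0.65 CPM. Both collagen VIII chains spread most in ASIC1a-/- at ZT1. *Col28a1*, the lowest of all, was 0.39 to 1.06 CPM.

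Several chains that assemble together in a collagen molecule were not at equal levels. *Col1a2* was above *Col1a1* in 16 of 16 libraries, by 3.01 to 5.79 times in TPM (median 3.89). The chains make up collagen I together, whose common form holds more of the alpha 1 chain. *Col4a2* was above *Col4a1* in 16 of 16 libraries (1.02 to 1.76 times), and *Col6a1* was above *Col6a3* in 16 of 16. *Col9a2* and *Col9a3* were each above *Col9a1*, the third chain of collagen IX, in 16 of 16 libraries, by medians of 14.4 and 11.7 times. Other pairs of the same collagen type were closer at the median. *Col4a4* was above *Col4a3* in 10 of 16 libraries (median 1.08 times) and *Col8a2* above *Col8a1* in 10 of 16 (median 1.11 times). TPM depends on the transcript lengths that RSEM assigned, so these ratios hold for that estimate.

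Collagen genes differed between libraries in more than 1 pattern. In the first, collagen genes were higher where the meningeal markers were higher. They included the genes of collagens I, III and VIII, 2 of the 3 collagen V genes and 2 of the 6 collagen VI genes. Another pattern is described further below for *Col4a1*, *Col4a2*, *Col11a1* and *Col16a1*, and it was not limited to them. The marker score is the mean log2 CPM of the 12 meningeal fibroblast markers, centred over the libraries, and a slope of 1 means that a gene doubled when the markers doubled. With the 4 groups in the same edgeR fit, 11 of the 41 collagen genes (26.8%) had a slope at an adjusted p under 0.05, all of them positive, against 3.03% of the 15806 genes tested. The median slope was 0.09 over the collagen genes and 0.00 over all genes. The score ran from -0.71 to 0.66 in 14 libraries and stood at 2.33 in ASIC1a-/- ZT1 replicate 4 and 1.52 in ASIC1a-/- ZT13 replicate 2. The score was measured and not assigned, so this is a relation between genes and no comparison of the study's groups.

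*Col1a2*, which encodes the alpha 2 chain of collagen I, was 8.90, 8.57, 11.9 and 9.71 CPM in the WT libraries and 11.01, 9.09, 15.01 and 41.1 CPM in the ASIC1a-/- libraries at ZT1 (replicates 1 to 4). At ZT13 it was 13.8, 11.9, 11.3 and 11.4 CPM in WT and 9.14, 24.0, 9.60 and 9.47 CPM in ASIC1a-/-. The 2 libraries high in meningeal markers were the highest of the 16, and the ranges of all 4 groups overlapped. Its slope was 0.71 ± 0.05 (SE, adjusted p = 1.41e-08). *Col3a1*, the chain of collagen III, was 1.78, 1.32, 2.67 and 1.68 CPM in WT and 1.56, 1.68, 3.08 and 12.7 CPM in ASIC1a-/- at ZT1. At ZT13 it was 1.86, 1.504, 0.93 and 1.08 and 1.55, 4.06, 1.43 and 1.05 CPM. The same 2 libraries stood highest, and the span of 13.6 times from the lowest to the highest library was the widest of the 41 genes. Its slope of 1.02 ± 0.09 (adjusted p = 1.85e-07) was also the steepest. *Col1a1*, the other chain of collagen I, was 3.29, 3.29, 4.38 and 3.59 CPM in WT and 3.49, 3.05, 5.72 and 15.8 CPM in ASIC1a-/- at ZT1. At ZT13 it was 3.23, 2.87, 2.32 and 2.64 and 2.67, 7.34, 3.03 and 2.38 CPM. It followed the same order at the top, with a slope of 0.79 ± 0.06 (adjusted p = 2.56e-08).

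The collagen VI chains *Col6a2* (0.57 ± 0.07) and *Col6a1* (0.47 ± 0.06) passed as well, whereas *Col6a3*, the third chain of the same filament, had a slope of 0.05 and did not, nor did *Col6a4* (0.09), *Col6a6* (0.09) or *Col6a5* (-0.06). *Col6a2* was 9.72, 7.13, 12.7 and 29.5 CPM in the ASIC1a-/- libraries at ZT1 and 8.84, 16.3, 9.93 and 6.82 CPM at ZT13, and 7.59 to 10.8 CPM in the 8 WT libraries. *Col6a3* was 8.62 to 14.4 CPM over all 16 libraries, and its highest value was in ASIC1a-/- ZT13 replicate 3, where the score was low. The remaining genes that passed were *Col5a1* (0.43) and *Col5a2* (0.21), which join collagen I fibrils (the third collagen V gene, *Col5a3*, had 0.08 and did not pass), *Col8a2* (0.35) and *Col8a1* (0.24), chains of a network under endothelia, the FACIT *Col12a1* (0.28) and *Col4a5* (0.23), an X-linked collagen IV chain. By class, 5 of 11 fibrillar collagens passed, 2 of 6 collagen VI chains, 1 of 6 collagen IV chains, 1 of 9 FACIT collagens, 2 of 5 network and other collagens, and 0 of the transmembrane and multiplexin collagens in edgeR (1 gene, *Col23a1*, at an unadjusted p under 0.05, and 0 in DESeq2).

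The calls rest on 2 libraries. Without both, 0 of 41 collagen genes passed in edgeR and 4 had an unadjusted p under 0.05, against 572 of all 15806 genes. The slopes kept their sign and much of their size for *Col3a1* (1.12 ± 0.25, adjusted p = 0.198), *Col1a1* (0.68 ± 0.18, adjusted p = 0.511) and *Col1a2* (0.46 ± 0.14, adjusted p = 0.789). Without ASIC1a-/- ZT1 replicate 4 alone, 6 passed: *Col1a1*, *Col1a2*, *Col3a1*, *Col6a1*, *Col6a2* and *Col12a1*. Other cell types moved with the score too: 6 of 10 mural cell markers, 3 of 11 endothelial markers and 1 of 6 choroid plexus markers passed, all higher, and without the 2 libraries 0 of each passed in edgeR, with 3, 1 and 0 at an unadjusted p under 0.05. In ASIC1a-/- ZT1 replicate 4, mural markers summed to 260.5 CPM and endothelial markers to 247 CPM, the highest of the 16 libraries for both. Their part in the collagen slopes was not tested.

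**Figure D2:**
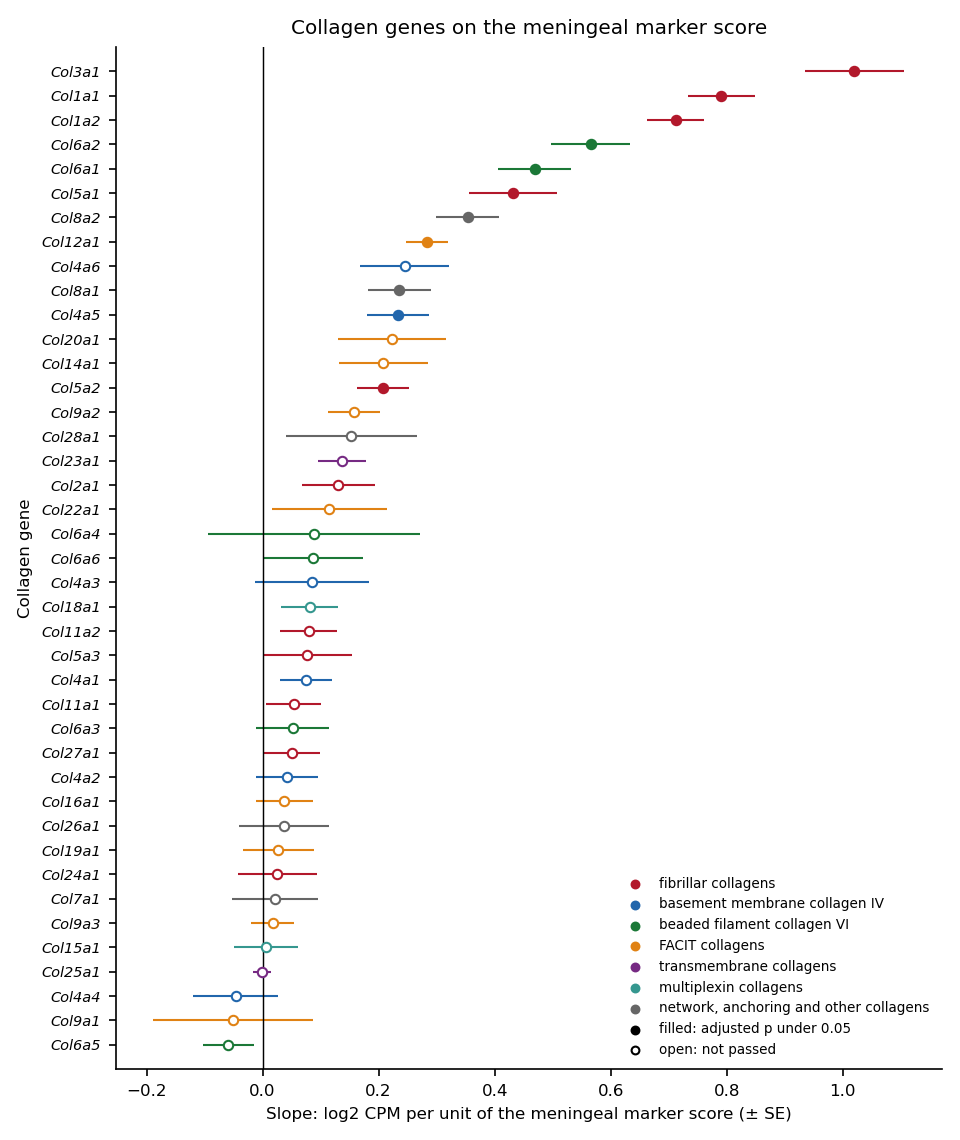
Slope of each of the 41 collagen genes on the meningeal marker score (horizontal, log2 CPM per unit of score, ± SE), coloured by class and ordered by slope. Filled points, 11 in number, passed at an adjusted p under 0.05, and Col3a1, Col1a1 and Col1a2 lie farthest right, at 1.02, 0.79 and 0.71.

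**Figure D3:**
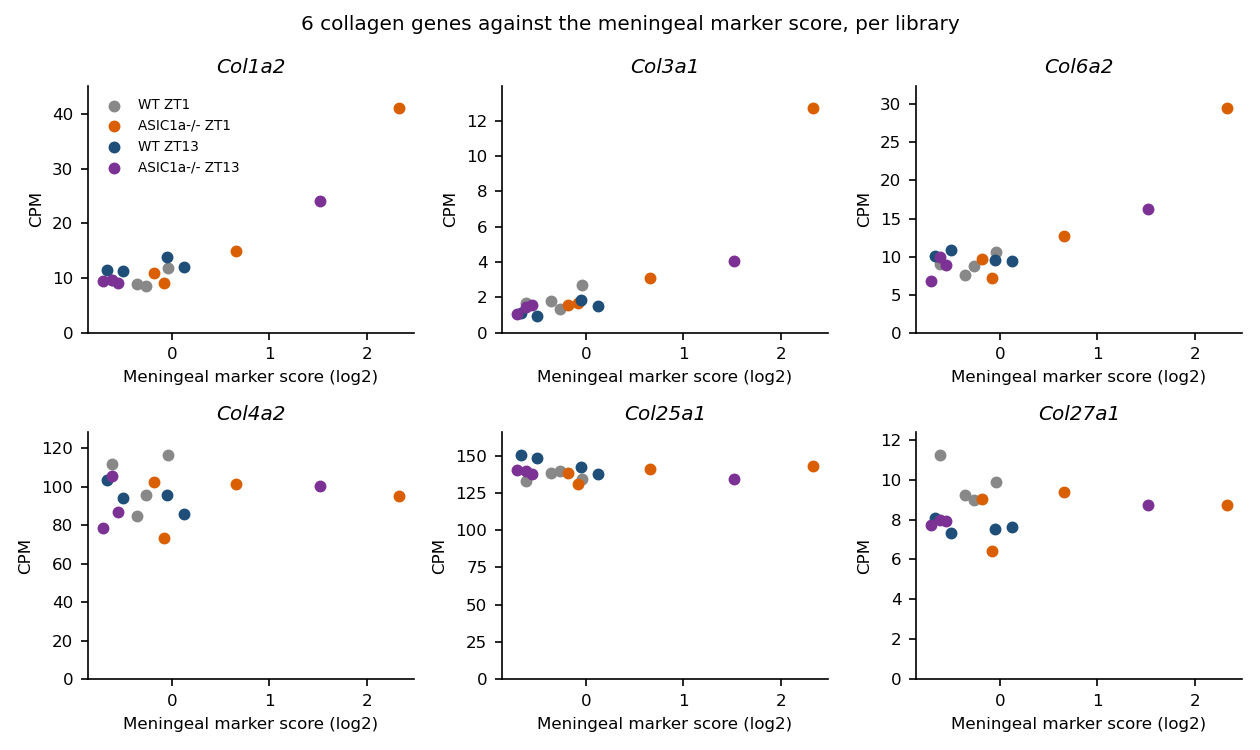
CPM of 6 collagen genes (vertical, from 0) against the meningeal marker score (horizontal, log2) in the 16 libraries, coloured by group. Col1a2, Col3a1 and Col6a2 rise with the 2 libraries at scores of 1.52 and 2.33, whereas Col4a2, Col25a1 and Col27a1 lie at their usual level there.

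Many of the highest collagens had no slope on the meningeal marker score that passed. *Col25a1* had a slope of 0.00 ± 0.02, and its levels of 131 to 150.5 CPM differed by 1.15 times between the lowest and the highest of the 16 libraries. *Col16a1* (0.04 ± 0.05), *Col4a2* (0.04 ± 0.05), *Col11a1* (0.05 ± 0.05) and *Col4a1* (0.07 ± 0.05) did not pass. *Col23a1*, at rank 6 by TPM, had a slope of 0.14 (adjusted p = 0.0985 in edgeR) and passed under 3 of 24 alternatives. *Col27a1* (0.05 ± 0.05), *Col15a1* (0.01) and *Col18a1* (0.08) did not pass either. *Col6a5*, *Col9a1*, *Col4a4* and *Col25a1* were the 4 genes with a slope under 0. *Col6a4* varied nearly as much between mice of a group as *Col1a1* did (within-group SD of log2 CPM 0.61 against 0.66), with 2.203 to 8.78 CPM over the 16 libraries, but its lowest value was in ASIC1a-/- ZT1 replicate 4 and its highest in WT ZT13 replicate 3.

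Between genotypes, no collagen gene passed at either time. At ZT1, 0 of 41 passed in edgeR, against 0.0127% of all genes tested. There 7 collagen genes had an unadjusted p under 0.05, against 1107 of all 15806 genes. DESeq2 also called 0, with 6 at an unadjusted p under 0.05, against 959 of all genes. The fold changes ran from -0.41 to 1.35 on the log2 scale with a median of 0.00, the same as over all genes. At ZT13, 0 of 41 passed in edgeR, against 0.101% of all genes. Of the 41, 1 had an unadjusted p under 0.05, against 591 of all 15806 genes. DESeq2 called 0 with 2 at an unadjusted p under 0.05, against 482 of all genes. The fold changes ran from -0.52 to 0.58 with a median of 0.04.

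The largest values at ZT1 belonged to genes of the meningeal pattern. *Col3a1* was higher in the ASIC1a-/- group by 1.35 ± 0.55 (SE, log2, adjusted p = 0.680), *Col1a2* by 0.96 ± 0.39, *Col1a1* by 0.95 ± 0.42 and *Col6a2* by 0.71 ± 0.32, and none of these passed. Without ASIC1a-/- ZT1 replicate 4 the same values were 0.18 ± 0.39, 0.26 ± 0.27, 0.17 ± 0.31 and 0.13 ± 0.22. With the score as a covariate they were -0.18, 0.01, -0.14 and -0.03. These 4 values thus depended on 1 library. Of the 12 meningeal markers, 0 passed in edgeR at ZT1, 11 had an unadjusted p under 0.05 and all 12 had a value above 0. Their sums at ZT1 were 82.5, 90.3, 138 and 456 CPM in ASIC1a-/- (replicates 1 to 4) and 66.1 to 87.8 CPM in WT. The markers rose together, most of all in replicate 4, so they are not 12 separate observations. Their genotype values without that library are not given here. At ZT13, 0 of 12 passed and 0 had an unadjusted p under 0.05.

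At ZT1, 3 collagen genes had no overlap between genotypes, all lower in ASIC1a-/-, which is 7.32% of the 41 against 2.93% of all genes tested. *Col7a1*, the chain of anchoring fibrils, was 4.32, 4.47, 5.28 and 4.90 CPM in WT and 4.30, 3.08, 3.47 and 3.57 CPM in ASIC1a-/- (-0.39 ± 0.15, adjusted p = 0.680). *Col6a5*, a collagen VI chain, was 5.77, 5.48, 5.93 and 5.61 CPM in WT and 4.79, 5.18, 5.34 and 4.39 CPM in ASIC1a-/- (-0.21 ± 0.09, adjusted p = 0.680). The third, *Col22a1*, was 1.65, 1.49, 1.66 and 1.54 CPM in WT and 1.43, 0.81, 1.22 and 1.31 CPM in ASIC1a-/-. At ZT13 these genes overlapped between the genotypes, as did all other collagen genes (0 of 41 without overlap, against 2.57% of all genes).

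**Figure D4:**
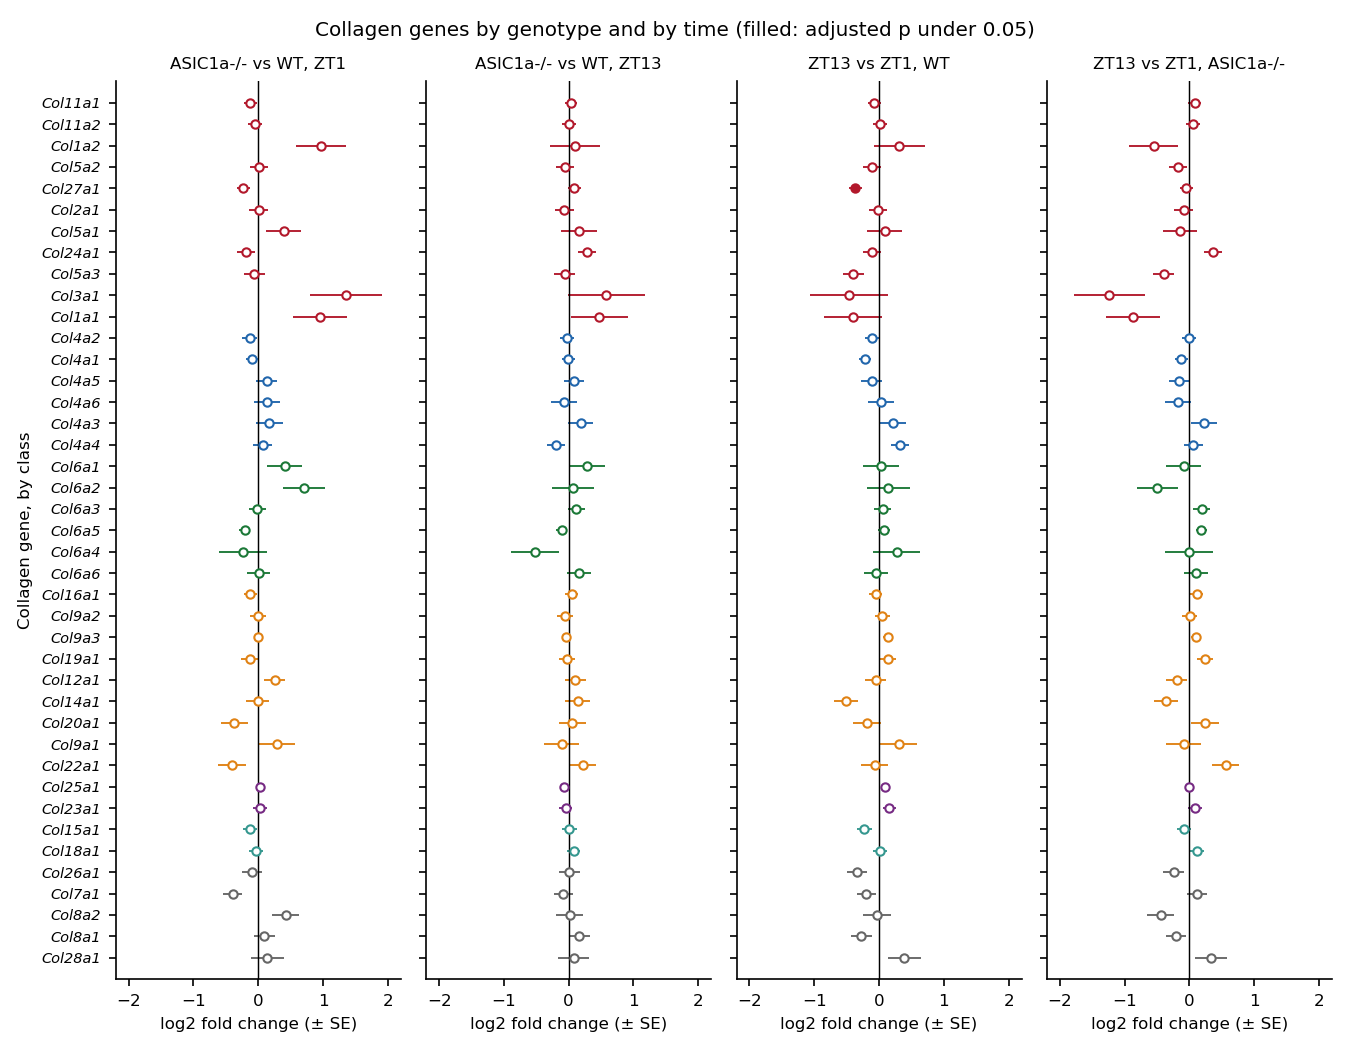
Log2 fold change (horizontal, ± SE) of the 41 collagen genes, ordered by class, for ASIC1a-/- against WT at ZT1 and at ZT13 and for ZT13 against ZT1 in WT and in ASIC1a-/-. Col27a1 in WT, at -0.36, is the filled point that passed, and the wide bars of Col1a1, Col1a2, Col3a1, Col6a1 and Col6a2 come with the spread between mice.

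Between times, *Col27a1* was lower at ZT13 in WT. It encodes a fibrillar collagen chain known from cartilage. In WT it was 9.26, 8.99, 9.89 and 11.2 CPM at ZT1 and 7.54, 7.64, 7.33 and 8.08 CPM at ZT13, so that every library at ZT13 lay below every library at ZT1. The fold change was -0.36 ± 0.10 (log2, SE, adjusted p = 0.0217). In ASIC1a-/- it was 9.05, 6.41, 9.39 and 8.76 CPM at ZT1 and 7.94, 8.75, 7.997 and 7.73 CPM at ZT13, where the times overlapped (-0.05 ± 0.10, adjusted p = 0.781). The difference between the genotypes was 0.31 ± 0.14 and did not pass (adjusted p = 1.00, unadjusted p = 0.0405). The call in WT was lost without WT ZT1 replicate 4 (-0.29, adjusted p = 0.0843) or WT ZT13 replicate 3 (-0.35, adjusted p = 0.0559), and on the log2(TPM + 1) scale (-0.20, adjusted p = 0.196).

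This was 1 of 41 collagen genes (2.44%) in WT, against 13.3% of all genes tested, a lower share than in the background. In ASIC1a-/-, 0 of 41 passed in edgeR, against 11.3% of all genes. Of the 41, 5 had an unadjusted p under 0.05, against 4156 of all 15806 genes. DESeq2 called 0 with 4 at an unadjusted p under 0.05, against 3883 of all genes. For the interaction of genotype and time, 0 of 41 passed in edgeR, against 0.019% of all genes. An unadjusted p under 0.05 was found for 3 collagen genes (*Col22a1*, *Col24a1* and *Col27a1*) and 618 of all 15806 genes. DESeq2 called 0, with 3 at an unadjusted p under 0.05, against 477 of all genes. The median fold change from ZT1 to ZT13 was -0.03 in WT and -0.01 in ASIC1a-/-, against 0.00 and -0.01 over all genes.

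Groups without overlap between times were 5 of 41 collagen genes in WT (12.2%, against 18.3% of all genes) and 0 of 41 in ASIC1a-/- (against 15.7%). Besides *Col27a1* these were *Col1a1* and *Col14a1*, lower at ZT13, and *Col4a4* and *Col28a1*, higher at ZT13, none of which passed. *Col14a1*, a FACIT collagen, was 1.65, 2.22, 2.08 and 1.79 CPM at ZT1 and 1.54, 1.33, 1.47 and 1.08 CPM at ZT13 in WT (-0.51 ± 0.19, adjusted p = 0.0835). It passed with the meningeal score as a covariate (-0.52, adjusted p = 0.0380) and without the 2 libraries high in meningeal markers (adjusted p = 0.0499). *Col1a1* in WT (-0.40 ± 0.45) passed with the score as a covariate (-0.43 ± 0.14, adjusted p = 0.0405).

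Markers of other cell types also differed by time in WT, where 13.3% of all genes passed. Markers of the anterior pituitary summed to 0.51 to 3.54 CPM at ZT1 and 5.80 to 40.4 CPM at ZT13, and 3 of 3 measured markers passed as higher. Of the 11 endothelial markers 5 were lower and 2 higher, of the 10 mural markers 3 were lower and 1 higher, and 2 of 6 markers of oligodendrocyte precursors were lower. In ASIC1a-/-, against 11.3% of all genes, 2 endothelial markers were lower and 2 higher, and 1 mural marker was lower and 1 higher. The same 2 precursor markers were lower there, and 0 of 3 pituitary markers passed in edgeR, with 1 at an unadjusted p under 0.05. Without the 2 libraries high in meningeal markers *Cldn5*, *Kdr*, *Ly6c1*, *Slco1a4* and *Notch3* passed again, *Vtn* passed newly and *Kcnj8* did not pass. Thalamic markers (0 of 6 passed in edgeR, 2 at an unadjusted p under 0.05) were highest in WT ZT1 replicate 4, at 118 CPM against 62.4 to 83.1 CPM elsewhere, and this library also had the highest *Col27a1* value. Without it the *Col27a1* change was -0.29, and without WT ZT13 replicate 1, the library with the most pituitary marker counts, it was -0.36 (adjusted p = 0.0464). The parts of the vascular and precursor cells in the *Col27a1* value were not tested.

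Collagen genes outside the meningeal pattern also varied together between mice. The basement membrane pair *Col4a1* and *Col4a2*, with *Col11a1* and *Col16a1*, was lowest in the same library of each group. The highest library was the same for all of them in WT at ZT1 and differed between them in the other groups. *Col4a1* was 40.1, 44.3, 53.2 and 52.8 CPM in WT and 47.1, 36.2, 46.5 and 48.6 CPM in ASIC1a-/- at ZT1. At ZT13 it was 41.2, 38.3, 40.5 and 43.7 and 39.2, 45.1, 43.6 and 35.5 CPM. Replicate 1 of WT ZT1, replicate 2 of ASIC1a-/- ZT1, replicate 2 of WT ZT13 and replicate 4 of ASIC1a-/- ZT13 were the lowest of their groups. Further collagen genes were lowest in the same libraries, among them *Col11a2*, *Col15a1* and *Col18a1*. So were *Col5a1*, *Col6a1* and *Col6a2* of the meningeal pattern. In ASIC1a-/- ZT1 replicate 2, 34 of the 41 collagen genes had the lowest value of the group and the median collagen gene lay 0.32 below its group mean on the log2 scale, where the median of all genes lay at 0.00. The meningeal score of that library was -0.08, and its sum of endothelial markers, 205 CPM, lay within the range of the other libraries. Its sum of the 12 basement membrane partners, laminins, nidogens and the like, 337 CPM, was the lowest of the 16 libraries. In ASIC1a-/- ZT13 replicate 4 and WT ZT1 replicate 1 the lowest value was found there for 27 and 26 genes. Their median deviations were -0.21 and -0.16, against 0.00 in each over all genes. These 2 libraries had the next lowest sums of basement membrane partners, 359 and 353 CPM, against 378 to 463 CPM in the other 13. Their part in the collagen values was not tested. How many of all genes were lowest of their group in each library is not given here.

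Chains that share a molecule varied alike to different degrees. Over the 16 libraries, after the group mean was taken away, *Col1a1* and *Col1a2* had a Pearson correlation of 0.99 (Spearman 0.97), *Col6a1* and *Col6a2* of 0.97 (0.91) and *Col4a1* and *Col4a2* of 0.97 (0.89). Without the 2 libraries high in meningeal markers these were 0.96, 0.94 and 0.98. The start sites of *Col4a1* and *Col4a2* lie 21 bp apart on opposite strands of chromosome 8, a shared promoter region. *Col4a3* and *Col4a4*, whose starts lie 72 bp apart on chromosome 1, had 0.32 (0.34), and *Col4a5* and *Col4a6*, 1309 bp apart on chromosome X, had 0.76 (0.61), or 0.45 without the 2 libraries. *Col4a3* and *Col4a4* are counted in few reads, with 0.96 to 2.12 and 1.53 to 2.27 CPM.

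Chains that share no molecule varied alike as well. *Col4a1* with *Col16a1* had 0.93 (0.82) and *Col4a1* with *Col11a1* 0.88 (0.82), whereas *Col1a2* with *Col4a1* had 0.55 (0.63) and *Col1a2* with *Col25a1* 0.14 (-0.01). All these are descriptions over 16 libraries that share their counting and scaling. Correlations between pairs drawn from all genes are not given here, so these values are not shown to be particular to collagens. Collagen transcripts are long and rich in G and C: the longest annotated transcript had a median of 6119 bp and 55.1% G and C over the 41 genes, against 3344 bp and 49.6% over all genes tested. Over all genes, the deviation of a library had a correlation with G and C content of -0.10 to 0.11 and with log length of -0.11 to 0.06. In each group, the library lowest for *Col4a1* also had the lowest correlation with log length. It was -0.06 in WT ZT1 replicate 1, -0.10 in ASIC1a-/- ZT1 replicate 2, -0.11 in WT ZT13 replicate 2 and -0.03 in ASIC1a-/- ZT13 replicate 4. The correlations of these libraries with G and C content were -0.09, -0.06, 0.06 and -0.08, in the same order. The part of length and base content in the shared variation was not tested.

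**Figure D5:**
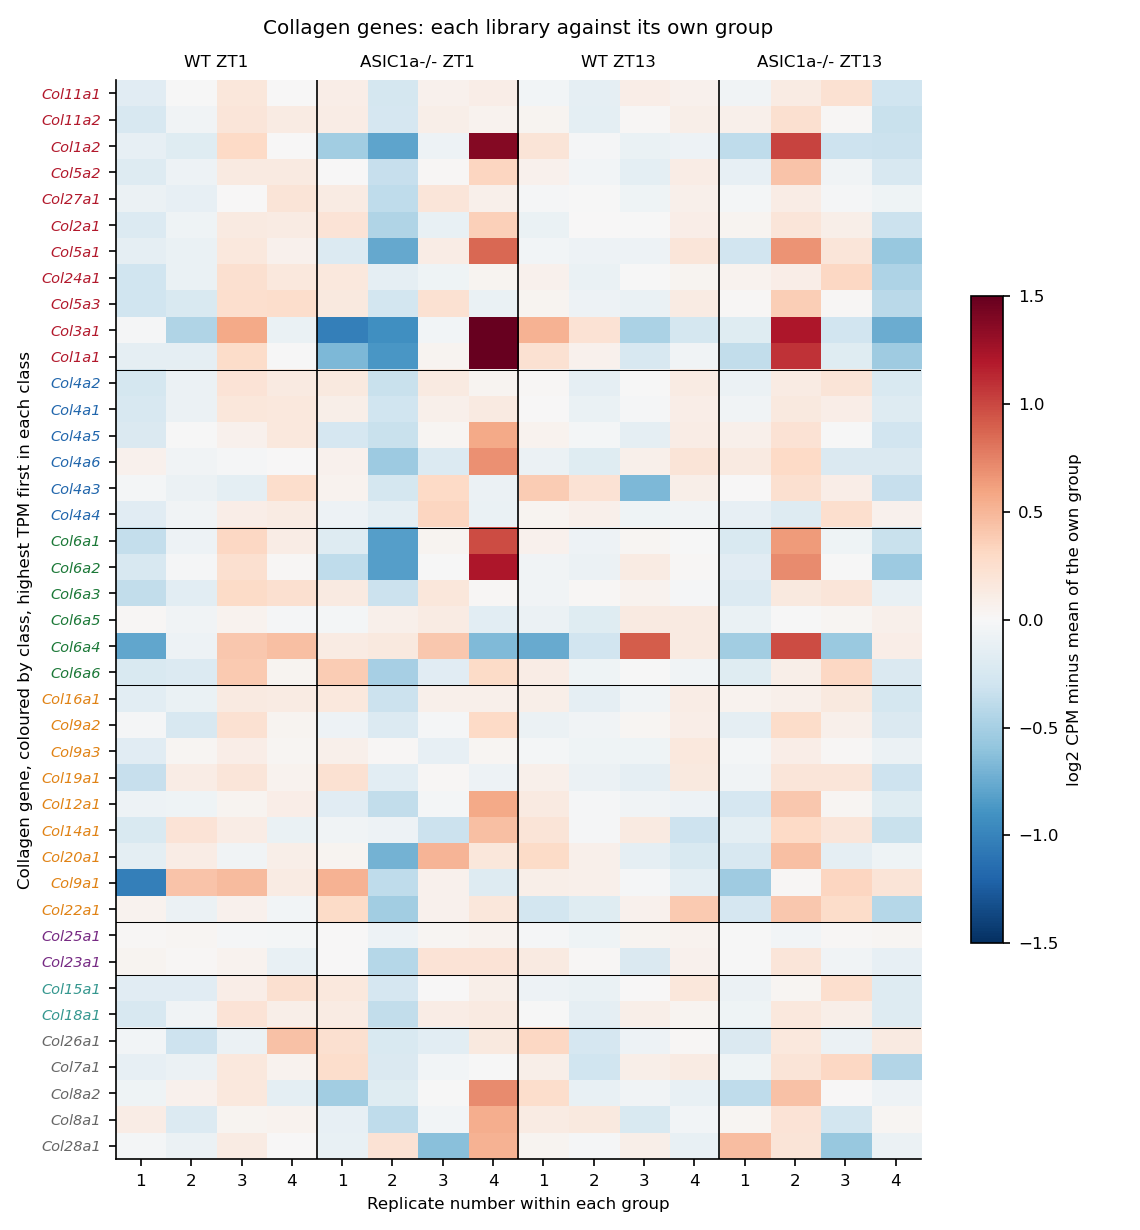
Log2 CPM of each collagen gene (rows, by class) in each library (columns, by group) minus the mean of its own group, with colours that reach their end at 1.5 in either direction. ASIC1a-/- ZT1 replicate 4 and ASIC1a-/- ZT13 replicate 2 are red in the rows of Col1a1, Col1a2, Col3a1, Col5a1, Col6a1 and Col6a2, and ASIC1a-/- ZT1 replicate 2 is blue in most rows.

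Of the 30 listed genes that fold, modify and process collagen, 28 were measured, and 5 passed by time in each genotype, a share of 17.9% against 13.3% of all genes in WT and 11.3% in ASIC1a-/-. *Colgalt1*, a galactosyltransferase of collagen, was higher at ZT13 in both genotypes (55.0 ± 1.69 to 64.1 ± 0.99 CPM in WT and 52.6 ± 3.33 to 63.1 ± 1.93 CPM in ASIC1a-/-, SD, n = 4). The fold changes were 0.22 ± 0.04 (SE, adjusted p = 0.00163) and 0.26 ± 0.04 (adjusted p = 0.000405). *Plod1*, a lysyl hydroxylase, was lower at ZT13 in both (-0.21 and -0.24), as was *Adamts2*, the protease that removes the amino-terminal propeptide of collagens I to III (-0.14 and -0.15). In WT *Pcolce2*, an enhancer of procollagen processing, was also higher (0.41), and *Mia3*, which loads procollagen for export, was higher by 0.08. In ASIC1a-/- the galactosyltransferase paralog *Colgalt2* (-0.31) and *P3h4* (-0.15), a partner of lysyl hydroxylase, were lower. In all, 3 genes were higher and 2 lower in WT and 1 higher and 4 lower in ASIC1a-/-. Without the 2 libraries high in meningeal markers, 7 of the 28 passed in WT, against 13.2% of all genes. In ASIC1a-/- 2 of the 28 passed then (*Colgalt1* and *Plod1*), against 6.79% of all genes. Between genotypes, 0 of the 28 passed in edgeR, with 4 at an unadjusted p under 0.05 at ZT1 and 0 at ZT13. The most abundant genes of the list, in TPM, were *Ppib* (167), *P4hb* (144), *Mia3* (84.9) and *Plod3* (45.4), which fold, hydroxylate and export procollagen. Their group means of CPM spanned 91.9 to 92.8 for *Ppib*, 174 to 182 for *P4hb* and 39.5 to 41.5 for *Plod3*, and none of these 3 passed by time.

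Along the meningeal score, 7 of the 28 passed, all higher, against 3.03% of all genes. Like the collagen calls, these and those of the partners and receptors rest on the 2 libraries high in meningeal markers: without both, 0 of the 28 processing genes, 0 of 12 partners and 0 of 9 receptors passed in edgeR (3, 2 and 2 at an unadjusted p under 0.05), against 0.127% of all genes. The 7 processing genes were the cross-linking enzymes *Lox* (0.99 ± 0.15), *Loxl2* (0.65 ± 0.12) and *Loxl1* (0.21), the procollagen enhancer *Pcolce* (0.75 ± 0.05), the collagen chaperones *Serpinh1* (0.18) and *Fkbp10* (0.16), and *Crtap* (0.18), a part of the prolyl 3-hydroxylation complex. Of 12 partners of collagen IV in basement membranes, 8 passed, all higher: *Lamc3* (0.48), *Lama4* (0.44), *Nid1* (0.38), *Nid2* (0.37), *Hspg2* (0.31), *Lamb2* (0.24), *Lama2* (0.20) and *Lamc1* (0.13). *Agrn*, the highest of that list at 80.8 TPM, did not, with group means of 218 to 232 CPM. *Lamb2* followed with 37.7 to 43.2 CPM, *Lamc1* with 35.3 to 38.3 CPM and *Lamb1* with 14.4 to 14.6 CPM. Of 9 collagen receptors, 5 passed, all higher: *Mrc2* (0.72 ± 0.05), which takes up collagen, the tyrosine kinase *Ddr2* (0.56 ± 0.05) and the integrins *Itga10* (0.34), *Itga11* (0.29) and *Itgb1* (0.07). The receptor with the highest level was *Ddr1*, with group means of 103 to 107 CPM, followed by *Itgb1* with 87.2 to 92.1 CPM and *Lair1* with 8.29 to 9.26 CPM. All 12 meningeal markers passed, which their place in the score fixes. None of the hypothalamic (12), oligodendrocyte precursor (6), anterior pituitary (3), thalamic (6), or cortical and striatal (7) markers passed in edgeR, with 1, 0, 1, 0 and 2 at an unadjusted p under 0.05.

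By time, 0 of 12 basement membrane partners passed in either genotype in edgeR, and 0 had an unadjusted p under 0.05. Of all genes tested, 13.3% passed by time in WT and 11.3% in ASIC1a-/-. Of the 9 collagen receptors, 1 passed in ASIC1a-/- (11.1%), a share close to that of all genes. It was *Itga2*, an integrin chain near the level set for testing. *Itga2* was lower at ZT13 (1.03 ± 0.15 CPM at ZT1 and 0.50 ± 0.16 CPM at ZT13, SD, n = 4). The fold change was -1.03 ± 0.25 (adjusted p = 0.0131), and it did not pass without the 2 libraries high in meningeal markers (-0.98 ± 0.30, adjusted p = 0.0588). In WT, 0 of 9 passed in edgeR and 0 had an unadjusted p under 0.05. Between genotypes, 0 of these 21 genes passed in edgeR, with 0 partners and 2 receptors at an unadjusted p under 0.05 at ZT1 and 0 of either at ZT13.

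*Col6a5* passed by time in ASIC1a-/- in the limma test on TPM and not in the edgeR test on counts, which differ in both the unit and the test. It had 0.18 ± 0.09 for ZT13 against ZT1 in ASIC1a-/- from counts (adjusted p = 0.201) and 0.46 ± 0.09 on the log2(TPM + 1) scale, tested with limma (adjusted p = 0.00972). The transcript length that RSEM gave *Col6a5* was 5717 ± 466 bp at ZT1 and 4266 ± 697 bp at ZT13 in ASIC1a-/- (SD, n = 4). The mean CPM was 4.92 ± 0.42 and 5.58 ± 0.29 in these groups.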

How the data were processed

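RNA from the hypothalamus of 16 mice was sequenced by the authors, 1 library per mouse. Per the methods and the submitters' notes, the authors trimmed reads with cutadapt 1.8, aligned them to the mouse transcriptome (GRCm38) with STAR 2.5.3a and estimated each gene's expected count, TPM and mean transcript length with RSEM 1.2.31, which are the deposited values used here. Expected counts share reads between similar genes, and 4.85% of the values were not whole.

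The 15806 genes with more than 1 CPM in at least 1 library entered the tests. Expected counts were rounded, scaled by TMM (all CPM values other than those of the filter are on that scale) and tested with the quasi-likelihood test of edgeR 4.0.16 in R 4.3.3, with all 4 groups in 1 fit (12 residual degrees of freedom, biological coefficient of variation 6.06%) and Benjamini-Hochberg adjustment over all genes tested, at 0.05. The slope on the meningeal marker score came from the same fit with the score added. Libraries held 34888522 to 42326259 counts (median 35750448). The script was tested on simulated counts with known changes. Alternatives were DESeq2 1.42.0, its size factors, 2 other filters, limma 3.58.1 on log2(TPM + 1) and log2(TPM + 0.1), a replicate block, the score as a covariate, and libraries left out. Gene positions are from GENCODE M21 (GRCm38).

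Collagen members, lists and tests were chosen with earlier results of these data known. Named with values were members that passed in any comparison, the 3 highest by TPM of each class, members with a library apart from its group, and up to 4 of the highest genes of each related list; marker lists are given as sums and counts. The variance between replicates of a group was 2.91 to 9.78 times that of sampling noise (chi-square per degree of freedom) over 24 pairs, so none was counted as a repeat deposit. Of the 55401 identifiers, 260 had no symbol in the tables used here, and HTSeq counts were not used here.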

Additional observations from a re-analysis of the deposited data

Results flagged for a closer look

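In 13 of 164 groups of 4 mice (7.93%), the highest or lowest library of a collagen gene lay far from the other 3, by a gap past Dixon's limit. Chance gives about 1 in 20 such groups. The values are CPM.

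ASIC1a-/- ZT1 replicate 2 stood low for 4 genes: *Col11a1* was 39.3 against 49.0 to 50.5 in the other mice of the group, *Col4a1* was 36.2 against 46.5 to 48.6, *Col11a2* was 15.2 against 18.9 to 19.7, and *Col18a1* was 12.1 against 16.9 to 17.0. ASIC1a-/- ZT13 replicate 2, high in meningeal markers, stood high for *Col1a2* with 24.0 against 9.14 to 9.60, for *Col1a1* with 7.34 against 2.38 to 3.03, and for *Col3a1* with 4.06 against 1.05 to 1.55. ASIC1a-/- ZT1 replicate 4, the other library high in meningeal markers, stood high for *Col3a1* with 12.7 against 1.56 to 3.08.

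The remaining values lay in other libraries. In WT at ZT13, replicate 4 was high for *Col9a3* (9.91 against 8.44 to 8.68) and for *Col5a1* (4.19 against 3.49 to 3.60), replicate 2 was low for *Col7a1* (3.35 against 4.36 to 4.47), and replicate 1 was high for *Col8a2* (4.82 against 3.72 to 3.88). ASIC1a-/- ZT1 replicate 3, with a score of 0.66, was high for *Col4a4* (2.25 against 1.62 to 1.70).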

How the results depend on the processing

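The counts of collagen genes that passed between genotypes at ZT1, between genotypes at ZT13 and for the interaction were 0 under every alternative run. For time in WT, the count of 1 became 0 on both the log2(TPM + 1) and the log2(TPM + 0.1) scale, 3 with the meningeal score as a covariate (*Col27a1*, *Col14a1* and *Col1a1*), 2 without the 2 libraries high in meningeal markers, and 0 to 2 when single libraries were left out: 0 without WT ZT1 replicate 4 or WT ZT13 replicate 3, and 2 without WT ZT13 replicate 2, where *Col25a1* was added. For time in ASIC1a-/-, the count of 0 became 1 on either TPM scale (*Col6a5*) and 0 to 2 when single libraries were left out: *Col1a1* (-1.38, adjusted p = 0.0464) and *Col5a3* passed without replicate 2 at ZT13, and *Col22a1* and *Col24a1* without replicate 4 at ZT13. For the meningeal score, the count of 11 became 7 and 6 on the TPM scales with pseudocounts 1 and 0.1, 0 without the 2 libraries, and 6 to 12 when single libraries were left out, with 6 without ASIC1a-/- ZT1 replicate 4. The cause of these changes was not tested. In an alternative added after the data were seen, the related and marker lists were counted without the 2 libraries, and the counts along the score became 0 of 28 processing genes, 0 of 12 basement membrane partners and 0 of 9 receptors.

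The other counts, 134 in all, stayed within 1.5 times, as did DESeq2 with 12 for the score. Of the single-gene values, 683 kept their direction and side of the threshold, 19 passed newly, 32 no longer passed, and 3 changed sign without passing under either setting: *Col1a1*, *Col3a1* and *Col6a2* between genotypes at ZT1, with the score as a covariate.

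With the replicate number as a block, 1 collagen gene passed for time in WT and 13 for the score, and no other count of calls changed. The numbers did not pair the samples: same-numbered samples had correlations of -0.31 to 0.22 in their deviations, over 0.1 in 4 of 24 pairs. Genes near 1 CPM, such as *Col28a1* and *Col9a1*, rest on few reads and were tested with little precision.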
